A study of Oryza sativa Japonica Group with 8 samples.

Results

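Type-A response regulators are the small proteins that end, and at the same time damp, the cytokinin signal in plants. Cytokinin binds receptor histidine kinases, phosphate passes through phosphotransfer proteins to type-B response regulators, and these transcription factors switch on target genes, among them the type-A regulators themselves. The type-A proteins carry the phosphate-receiving domain without a DNA-binding domain and act as negative feedback, so their transcripts are widely used as a readout of cytokinin response in rice leaves and other organs.

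The 9 genes described here are RR1 (Os04g0442300), RR2 (Os02g0557800), RR3 (Os02g0830200), RR4 (Os01g0952500), RR5 (Os04g0524300), RR6 (Os04g0673300), RR7 (Os07g0449700), RR9 (Os11g0143300) and RR10 (Os12g0139400). A gene's values are those of the array probes whose name starts with its locus identifier. By these identifiers the genes lie on chromosomes 1, 2, 4, 7, 11 and 12. Of the 9 genes, 8 had a probe, 11 probes in all among 42477 on the array, and no probe of RR7 was found. Of these, 7 genes had a probe well above background on at least 4 of 8 arrays and stood among the 21544 genes tested, and RR5 did not. The names of 8 of the 9 were matched by symbol and chromosome in the reference gene table, and that of RR3 was not.

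The arrays compare blades of the fifth leaf from rice plants at the five-leaf stage (Oryza sativa Japonica, cultivar Hinohikari, grown at 25 ºC) treated with 10 µM linalool, a monoterpene alcohol of plant scent, with control blades, both taken after 24 h. Each group held 4 biological replicates, and each replicate pooled several plants. The control is called mock-treated in one label and without treatment in another, and is named mock here. The 4 mock samples shared 1 slide and the 4 linalool samples a different one, so a slide effect cannot be told apart from the treatment in any value below.

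Values are log2 levels relative to each array's 75th percentile of signal, so they compare arrays for 1 probe and say nothing about the order of different genes. The mock group had percentiles of 849.6 to 999.6 signal units and the linalool group of 1092 to 1605, and arrays correlated at 0.975 to 0.996 within groups and at 0.866 to 0.905 between them. The 4 leaf marker genes with a matched name, including RCA for Rubisco activase and PSAH for a photosystem I subunit, were well above background on all 8 arrays. The regulators were taken up because a previous look at the same arrays had shown most of them lower after linalool. Their differences are therefore given as a description, with no p-value for any of them, and the counts of regulators called support nothing.

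All 7 tested regulators were lower after linalool, with no overlap between the 4 linalool and the 4 mock arrays for any of them. Their differences ran from -2.66 for RR1 to -0.75 for RR3, with a median of -2.04 on the log2 scale, where the median of all 21544 genes was -0.10. RR1, RR9 and RR10 differed most, at 6.32-fold, 6.31-fold and 5.36-fold lower levels. For RR1, 1 linalool array was not well above background, and its signal over background overlapped between the groups. With normexp background correction its difference was -0.54 and not called. This setting adds an offset of 50 units to every signal before the log, which by itself makes differences of dim probes smaller. How much of the RR1 change comes from the offset was not tested. With limma across all genes, 7 of the 7 were below an adjusted p of 0.05 and lower, and 6 of them were also at least 2-fold lower. Over all genes, 67.4% were called in either direction, 38.5% were called lower, 17.5% were called lower by at least 2-fold, and 36% (7765 genes) had all linalool arrays below all mock arrays. These shares are printed as background and nothing is read from them, since the same contrast led to the choice of the genes.

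**Figure D1:**
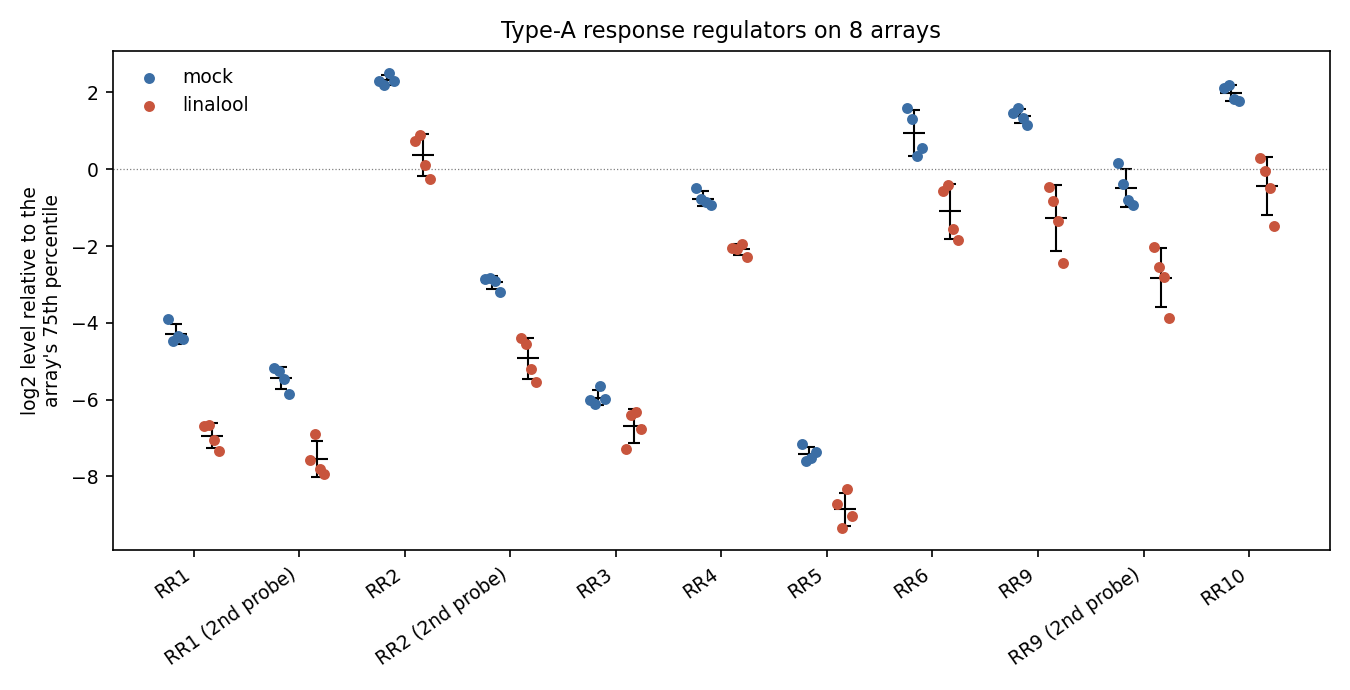
Log2 level relative to the array's 75th percentile (y axis) for each of the 11 probes of the regulators (x axis), with 1 point per array, mock in blue and linalool in red, and bars for the mean ± SD of 4 arrays. The red points lie below the blue ones for every probe, by the smallest margin for RR3, whose lowest mock and highest linalool values are 0.19 apart.

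RR9 and RR10 are a pair of closely related genes on the ends of chromosomes 11 and 12, regions that are copies of each other. RR9 had mock levels of 1.47, 1.60, 1.33 and 1.15 and linalool levels of -0.47, -0.82, -1.34 and -2.44 on replicates 1 to 4. The mock mean of 1.39 ± 0.19 and the linalool mean of -1.27 ± 0.86 (SD, n = 4 each) differed by -2.66 (SE 0.38). The 4 mock arrays lay close together and the linalool arrays were spread, with replicate 4 lowest. RR10 had mock levels of 2.12, 2.21, 1.84 and 1.79 and linalool levels of 0.28, -0.05, -0.50 and -1.48, a difference of -2.42 (SE 0.35). Its arrays stood in the same order as those of RR9 within the linalool group. Because the files give no probe sequence, it was not tested whether the probes of RR9 and RR10 read both transcripts, and their values may not be independent.

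The likeness of this pair was larger than that of any other. Over the 8 arrays, with each gene centred on its mock mean, RR9 and RR10 differed by a root mean square of 0.18 on the log2 scale, and each was the nearest of 21515 genes to the other. The next closest pairs of regulators were RR1 with RR10 at 0.37 and RR1 with RR9 at 0.39. RR3 and RR9 were farthest apart, at 1.51. These distances contain the treatment difference and describe the 8 arrays only.

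**Figure D2:**
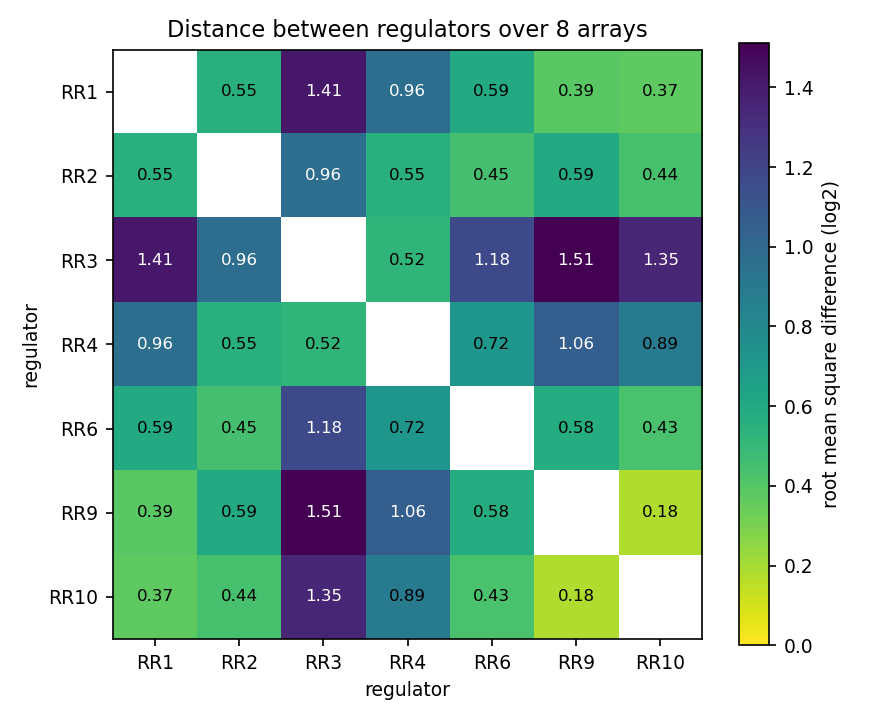
Root mean square difference on the log2 scale between the mock-centred levels of each pair of the 7 tested regulators over 8 arrays (both axes list the regulators, colour and number give the distance). RR9 and RR10 are the closest pair at 0.18, and RR3 stands apart from all but RR4 (0.52).

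RR1 and RR2 are type-A regulators whose transcripts are known to rise quickly when rice tissue is given cytokinin, and RR1 is known to act downstream of the auxin-induced factor CRL5 in crown root formation. RR1 had mock levels of -3.90, -4.48, -4.34 and -4.42 and linalool levels of -6.70, -6.67, -7.06 and -7.35. The linalool arrays were low throughout, and the gap between the lowest mock and the highest linalool array was 2.19, the widest among the 11 probes. This RR1 probe was dim, and only 3 of the 4 linalool arrays were well above background. Before any scaling the RR1 signal was 38.1 to 58.5 units in mock and 8.86 to 15.1 units after linalool. Its signal over background was 2.47 to 3.2 in mock and 2 to 2.51 after linalool, so the groups overlapped on this ratio. Median background was 26 to 28 units on the mock arrays and 19 on the linalool arrays. The part of this background in the RR1 difference was not tested.

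RR2 had mock levels of 2.29, 2.19, 2.50 and 2.29 and linalool levels of 0.75, 0.88, 0.10 and -0.25. Mock and linalool means were 2.32 ± 0.13 and 0.37 ± 0.53 (SD, n = 4 each), a difference of -1.94 (SE 0.24). The linalool arrays fell into a higher pair, replicates 1 and 2, and a lower pair, replicates 3 and 4. This RR2 probe was bright, with a signal of 3866 to 4892 units in mock and 1217 to 2841 units after linalool before scaling. The other RR2 probe read 109 to 121 units in mock and 31.3 to 65.8 units after linalool.

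RR6 varied most within the mock group. Its mock levels were 1.60, 1.32, 0.34 and 0.55 and its linalool levels -0.56, -0.40, -1.57 and -1.84. The mean was 0.95 ± 0.60 in mock and -1.09 ± 0.72 after linalool (SD, n = 4 each), a difference of -2.04 (SE 0.41), the largest SE of the 7 regulators. The groups did not overlap on the scaled values, but before scaling linalool replicate 2, at 1167 units, was above mock replicate 3, at 1093 units.

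RR4 had the most even response. Its mock levels were -0.49, -0.79, -0.85 and -0.93 and its linalool levels -2.04, -2.09, -1.94 and -2.28, a difference of -1.32 (SE 0.12). The linalool SD of 0.14 was below the mock SD of 0.19, which held for RR4 alone among the 7 tested regulators. For the other 6 the linalool SD was the larger, as it was for 42.6% of all genes and for 53.2% of the genes called lower.

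RR3 and RR5 were read close to background. RR3 had mock levels of -6.02, -6.12, -5.65 and -6.00 and linalool levels of -7.27, -6.41, -6.31 and -6.77, a difference of -0.75 (SE 0.21). Only 3 of its linalool arrays were well above background. Before scaling its mean signal was 14.6 units in both groups, and the groups overlapped. For RR5 none of the 8 arrays gave a signal well above background, and before scaling the groups overlapped as well. Its measured mean was -7.41 ± 0.19 in mock and -8.86 ± 0.43 after linalool (SD, n = 4 each), and no fold is given because both groups have only a bound.

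RR1, RR2 and RR9 each had a second probe, named for another transcript model of the same locus. For RR2 the probes differed by -1.94 (Os02t0557800-02) and -1.98 (Os02t0557800-01) between the groups. For RR9 they differed by -2.66 (Os11t0143300-02) and -2.34 (Os11t0143300-01), and for RR1 by -2.66 (Os04t0442300-02) and -2.11 (Os04t0442300-01). The second RR1 probe was well above background on 1 linalool array only. All linalool arrays lay below all mock arrays on each of the 3 second probes, which was so for 36% of all genes.

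The linalool arrays were not alike for these genes. Linalool replicate 4 held the lowest linalool level for 6 of the 7 regulators, RR3 being the exception, against 27.3% of all genes and 37.2% of the genes called lower. For 5 of the 7 (RR1, RR2, RR6, RR9 and RR10), replicates 1 and 2 were both above replicates 3 and 4, against 36.4% of all genes and 48.4% of those called lower. Without linalool replicate 4, the median of the 7 was -1.79, and without linalool replicate 2 it was -2.27, the widest range from leaving out 1 array. All 7 were still lower with each array left out in turn. The differences of RR9 and RR10 without linalool replicate 4 were -2.27 and -2.08.

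The genes whose mock-centred levels over the 8 arrays were nearest to the median of the regulators were Os05g0113300, Os04g0632300, Os08g0162600, Os08g0239000 and Os09g0338500. Their root mean square distance from that median ran from 0.13 to 0.17 on the log2 scale. The difference between the groups was -2.18 for Os04g0632300, -2.08 for Os08g0162600, -2.05 for Os08g0239000 and -2.01 for Os09g0338500. Each of the 5 was lower on linalool replicates 3 and 4 than on replicates 1 and 2. They were picked for their closeness to that median over these same arrays. Their differences and their order over the arrays follow from this choice, and nothing is read from them.

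**Figure D3:**
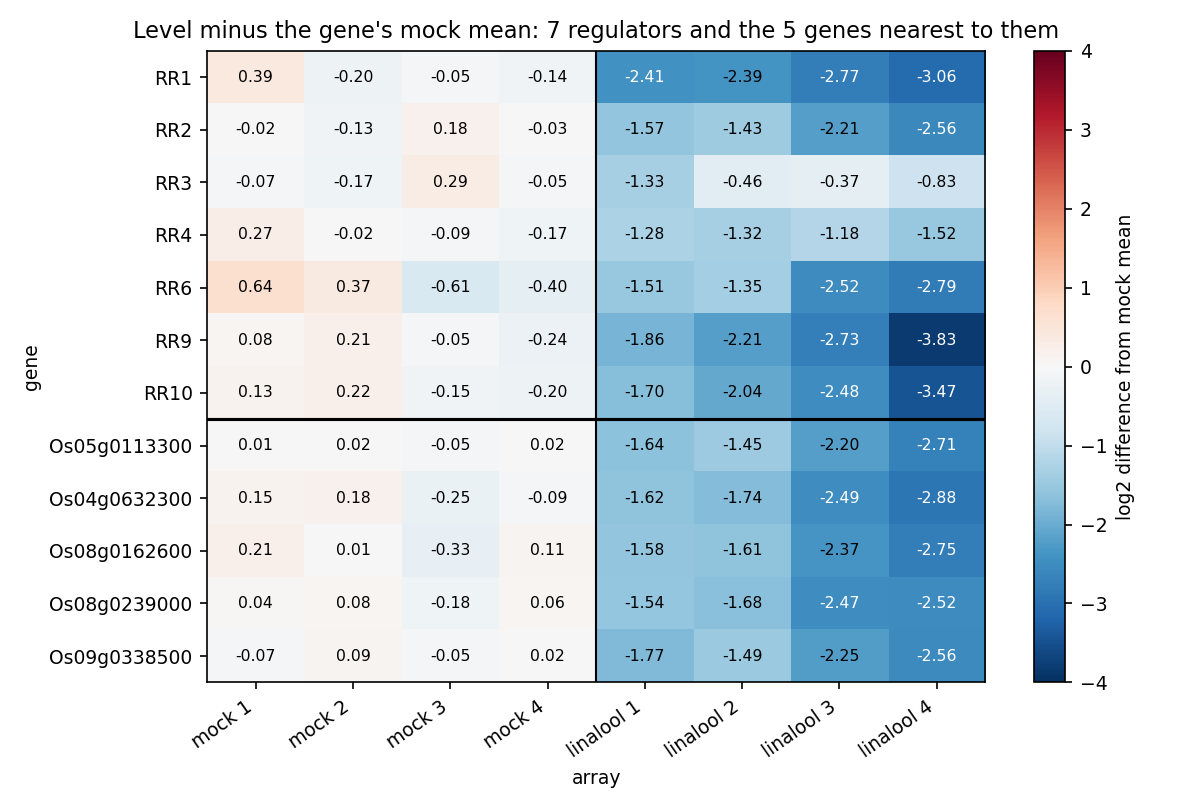
Level on each of 8 arrays (x axis) minus the gene's mock mean, on the log2 scale, for the 7 tested regulators (above the line) and the 5 genes nearest to their median (below the line), with blue for values below the mock mean. RR9 reaches -3.83 on linalool replicate 4, while RR3 stays between -1.33 and -0.37 on the linalool arrays.

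The size of the differences depended on how the arrays were scaled. The direction of the whole comparison moved with it: of the genes called, 42.9% were higher after linalool with the 75th percentile, 53% with normexp background correction and 82.8% when arrays were scaled to 6 spike-in probes. Spike-in scaling raised the median of all genes by 0.79. The median of the regulators then was -1.26 and that of all genes 0.68. Both scalings subtract 1 constant per array, so every gene shifts alike and the distance of the regulators from all genes is the same by construction. RR1, RR2, RR4, RR6, RR9 and RR10 remained lower with spike-in scaling, at -1.87, -1.16, -0.54, -1.26, -1.87 and -1.64. RR3 did not, at 0.04, and it was at 0.01 with normexp correction. With quantile normalisation RR3 was at -0.26 and not called, and the other 6 lay between -2.60 and -1.27.

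**Figure D4:**
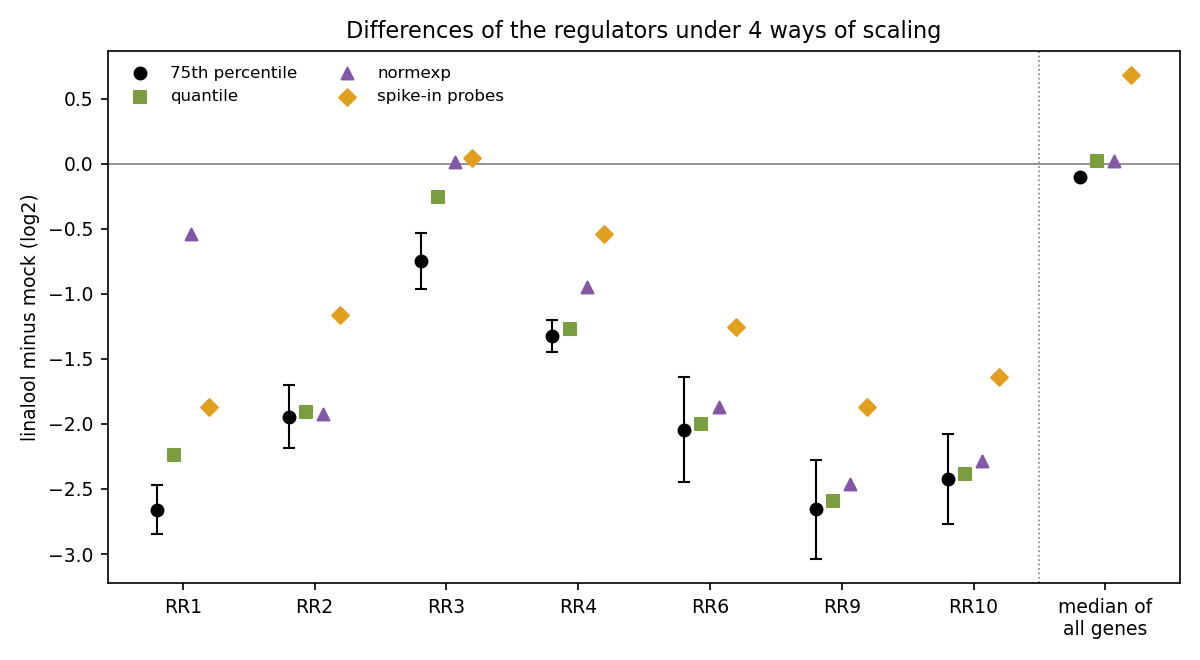
Linalool minus mock on the log2 scale (y axis) for each tested regulator and for the median of all genes (x axis) under 4 ways of scaling, with bars for ± SE of the 75th percentile values (n = 4 arrays a group). RR3 reaches 0.04 with the spike-in probes, where the median of all genes is at 0.68. RR1 moves from -2.66 to -0.54 with normexp, run with an offset of 50 units.

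The other genes of the cytokinin pathway were taken from recalled lists of 46 loci. Only the 25 whose symbol the reference bears out by chromosome and order were counted, and 19 of them were tested. With limma across all genes, 11 of the 19 fell, 3 rose and 5 were not called, with a median of -0.53. The background is 38.5% of all genes called lower and 28.9% called higher.

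Upstream in the relay, the receptor kinases with a matched symbol, which bind cytokinin, differed little. Of the 3 tested, 1 fell and 2 were not called, with a median of -0.22. The receptor kinase HK6 was left out, since its symbol was not found in the reference. The locus listed as HK6 was higher by 0.50 (limma adjusted p = 0.0149), with overlapping groups. HK4 fell by 0.53, from 0.10 ± 0.27 to -0.43 ± 0.07 (SD, n = 4 each, limma adjusted p = 0.00833). With spike-in scaling, which raises every difference by 0.79, HK4 was at 0.26. The phosphotransfer genes HP1 and HP2 were left out too, since the reference places their symbols on other chromosomes, so that step is not described. The pseudo-phosphotransfer proteins lack the histidine that carries phosphate and are known in Arabidopsis to inhibit the relay. Both tested members with a matched symbol fell. PHP1 fell by 1.45 (limma adjusted p = 2.76e-05) and PHP2 fell by 1.38 (limma adjusted p = 0.000679). PHP2 was not called with normexp correction (-0.31) or with spike-in scaling (-0.59), and PHP1 was at -0.67 with spike-in scaling and still called.

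The type-B regulators, which activate the type-A genes, moved both ways. Of the 4 tested with a matched symbol, 2 fell, 1 rose and 1 was not called, with a median of -0.00. RR26 and EHD1 were left out, since their symbols were not found in the reference. The locus listed as RR26 differed by -1.27 (limma adjusted p = 3.92e-06), a larger fall than that of any counted type-B gene, and EHD1 was not tested. RR3 has no matched symbol either, but was kept among the type-A genes. RR23 fell by 1.19, from 0.54 ± 0.14 to -0.65 ± 0.14 (SD, n = 4 each, limma adjusted p = 2.69e-05). RR21 rose by 0.37 (limma adjusted p = 0.0036; 1.15 with spike-in scaling), with all linalool arrays above all mock arrays, which was so for 27.2% of all genes. RR24 fell by 0.24 (limma adjusted p = 0.0179), but with spike-in scaling it was called higher, at 0.55, and the call of RR23 was lost there, at -0.40. RR24 was not called with normexp correction (-0.06), with the series matrix values (-0.18), without mock replicate 2 (-0.22) or without linalool replicate 4 (-0.22). The difference between the type-A and the type-B genes was not tested. Of the other type-A regulators RR8, RR11, RR12 and RR13, none was tested. RR11 was well above background on 1 mock and 2 linalool arrays, with means of -6.41 ± 0.37 and -6.91 ± 0.45 (SD, n = 4 each).

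Cytokinin activation and breakdown genes held the widest differences. LOG, which encodes the enzyme that releases the active base, fell by 2.32, from 3.57 ± 0.23 to 1.24 ± 0.28 (SD, n = 4 each, limma adjusted p = 1.04e-05), with linalool replicate 4 lowest as for most of the regulators, and was at -1.54 and still called with spike-in scaling. Its relative LOGL9 rose by 2.08 (limma adjusted p = 0.00697) from mock values with an SD of 1.17, and LOGL10 fell by 0.56 with overlapping groups (limma adjusted p = 0.00906). LOGL9 was not called with normexp correction, at 0.85. LOGL10 was not called with quantile normalisation (-0.20), normexp correction (-0.05) or spike-in scaling (0.23). In this list of 4 tested genes, 2 fell, 1 rose and 1 was not called. All of them are LOG or its relatives. The listed IPT and CYP735A genes of cytokinin synthesis were not counted, since their symbols were not found in the reference.

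Of 6 tested cytokinin oxidases, which degrade the hormone, 4 fell and 1 rose, with a median of -1.67. CKX3 fell by 3.71 (limma adjusted p = 1.44e-06), CKX4 fell by 3.23 (1.48e-06) and CKX9 fell by 2.43 (1.93e-06). For each, all linalool arrays lay below all mock arrays, which was so for 36% of all genes. CKX2, the gene of the grain number locus Gn1a, rose by 3.29 (limma adjusted p = 5.10e-05). Only 1 of its mock arrays was well above background against 4 linalool arrays, so it entered the test through the group where it was high, and the size of its difference rests on mock values near background. With normexp correction CKX2 was at 1.05, CKX3 at -1.62 and CKX4 at -1.81, and none of these was called, while CKX9 was at -1.56 and still called.

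**Figure D5:**
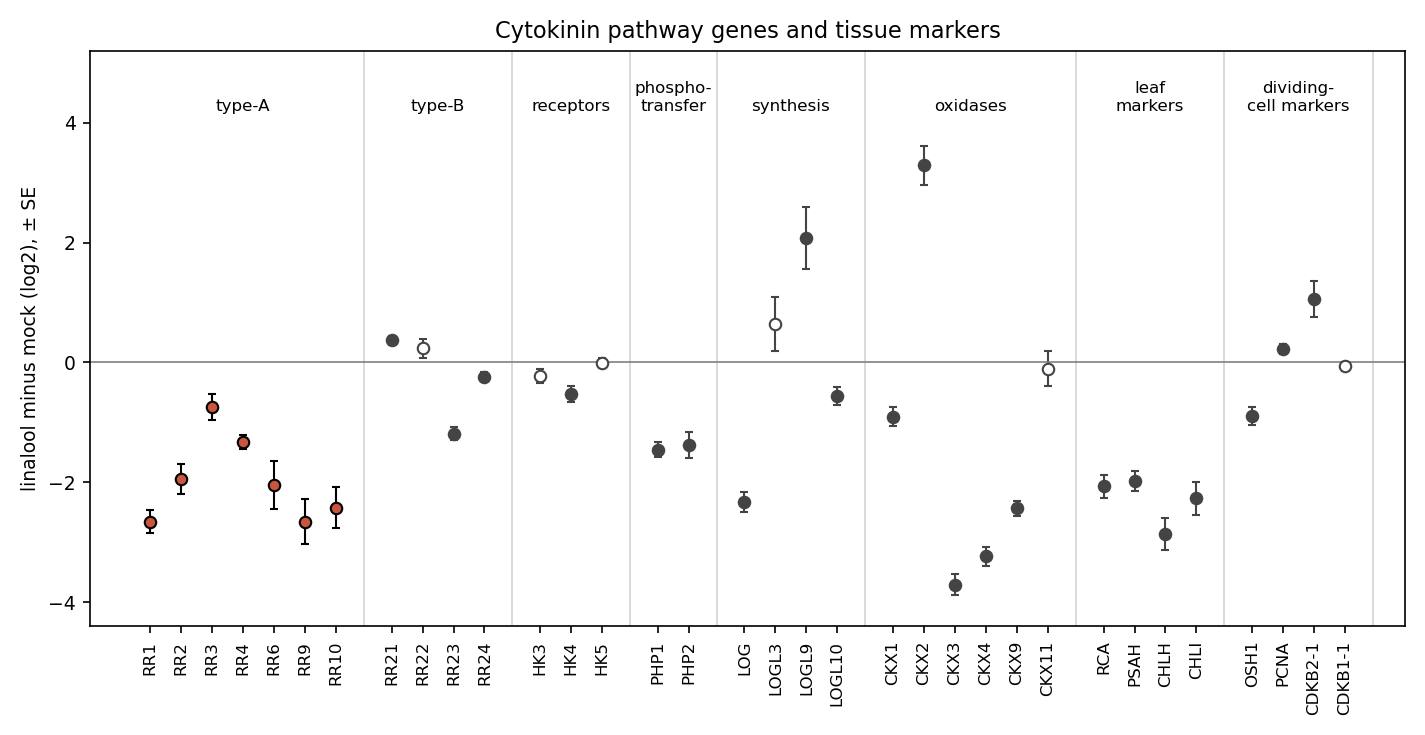
Linalool minus mock on the log2 scale, ± SE (y axis, n = 4 arrays a group), for the tested type-A regulators (red) and for pathway and marker genes with a matched symbol (filled where limma's adjusted p was below 0.05, open where it was not), grouped by role along the x axis. The type-A genes, taken up because most were already known to be lower on these arrays, lie between -2.66 and -0.75. The type-B genes with a matched symbol lie on both sides of 0, and RR26 (-1.27), without a matched symbol, is not drawn. The 2 sets were not chosen alike, so nothing is read from their contrast. The cytokinin oxidases reach from -3.71 (CKX3) to 3.29 (CKX2, with 1 mock array well above background and not called with normexp, at 1.05).

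Markers of leaf cells moved with the regulators. All 4 leaf photosynthesis markers fell, with a median of -2.17 (RCA -2.07, PSAH -1.97, CHLH -2.86 and CHLI -2.27). With quantile normalisation RCA was at -0.73 and PSAH at -0.94, and with spike-in scaling RCA was at -1.28, PSAH at -1.19 and CHLI at -1.48, all still called. Of 4 meristem and dividing-cell markers, 2 rose and 1 fell, with a median of 0.08. OSH1, a homeobox gene of the shoot meristem, fell by 0.89, PCNA rose by 0.23 and CDKB2-1 rose by 1.06, whereas CDKB1-1 differed by -0.07 and was not called. PCNA lost its call without any 1 of 6 of the 8 arrays (0.18 to 0.24), and OSH1 was at -0.10 and not called with spike-in scaling. With normexp correction OSH1 (-0.45), PCNA (0.16) and CDKB2-1 (0.46) all lost their calls. With spike-in scaling PCNA was at 1.01, CDKB2-1 at 1.85 and CDKB1-1 at 0.72, and all 3 were called higher. The part of these markers in the regulators' difference was not tested. In whole blades, fewer cells of a type and less RNA per cell cannot be told apart.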

How the data were processed

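The 8 arrays were single-colour (Cy3) rice oligo arrays. Agilent Feature Extraction 10.7.3.1 quantified the scans, per the file headers. Its processed signal, the deposited intensity, is linear and background-corrected, with no scaling between arrays. The deposited series matrix holds the same intensity times 1 constant per array (1.37 to 2.51), by a rule not given in the sources used here, with column medians of 298.9 to 339.8.

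Here log2 of the processed signal was used, minus the 75th percentile of the non-control spots of the array. Spots marked as non-uniform (4 to 17 per array) or as population outliers (32 to 41) were left out, and no spot was saturated. Spots of 1 probe were averaged. A probe needed a signal well above background on 4 or more arrays, and the 33120 of 42477 that had it were fitted with limma 3.58.1 (R 4.3.3, lmFit and eBayes, Benjamini-Hochberg). The fit was tested on simulated data with known differences before use. For a gene with several tested probes the brightest on average was used, and 1358 probes pointing to different loci were left out. The SE is limma's moderated one. The number of arrays limits the precision.

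The members and lists were chosen with earlier results of these data known. Named are all members, the called genes of each pathway list (the 4 with the smallest p where there are more), the markers and the 5 genes nearest to the members' median. List loci and symbols were recalled and kept where the symbol was unique in the reference table (ASM3414082v1), on the chromosome of the locus identifier and in its order. No coordinates are given, as the array design is on another build, and probe sequences were not used here.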

Additional observations from a re-analysis of the deposited data

Results flagged for a closer look

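Each group of 4 arrays was searched for 1 array lying apart, for the regulator probes, the named pathway and marker genes and array measures. This held in 1 of 66 groups, where chance gives about 1 in 20. On mock replicate 4 the 75th percentile of signal was 999.6, against 849.6 to 870.9 on the other mock arrays. None of the regulators' groups stood out.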

How the results depend on the processing

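Across the planned settings, all chosen with earlier results known, the number of regulators called lower was 5 to 8, the 8 including RR5 with no filter on dim probes. With normexp correction, run on median signals because the files hold no mean signal, 9403 probes, 5754 genes and 6 pathway genes were called, against 22304 probes, 14525 genes and 14 pathway genes, and RR3 was at 0.0124. The offset of 50 units added in this setting makes differences of dim probes smaller by construction. How much of the change in calls comes from the offset was not tested. With spike-in scaling the regulators' median was -1.26 and RR3 was at 0.0415, RR24 at 0.55, HK4 at 0.26, LOGL10 at 0.23 and CDKB1-1 at 0.72, since this scaling raises the median of all genes by 0.79. Over all genes the median shifted by 0.12 with quantile normalisation, 0.13 with normexp and -0.19 with no filter. With only probes well above background on all arrays, RR1 and RR3 were not tested. Leaving out 1 array gave 20501 to 22445 probes, 13370 to 14597 genes, 7 regulators, 13 to 15 pathway genes and a regulator median of -2.27 to -1.79. The same replicate numbers did not pair the arrays: same-numbered deviations correlated at -0.11 to 0.17, and 0 of 4 mock arrays correlated best with their own number. With the replicate block 21246 probes, 13825 genes, 7 regulators and 14 pathway genes were called, and PCNA was no longer called. Slide as a block could not be fitted. Dim genes (RR1, RR3 and RR5) are limited by signal over background, which was 1.67 to 1.96 for RR3 on the mock arrays.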
